A study of Mus musculus with 12 samples.

Results

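The circadian clock genes described here are 10 genes of the core transcriptional loop: Per1, Per2, Per3, Cry1, Cry2, Bmal1 (listed as Arntl in the annotation used), Clock, Nr1d1, Nr1d2 and Dbp. They were chosen by name from the 24100 genes of a count table, and all 10 were among the 14263 genes with enough counts to be tested. The RNA came from mouse embryonic fibroblasts (MEFs), cultured mesenchymal cells taken from embryos, that carried or lacked RTF2, a protein of the DNA replication machinery. The comparison asks whether transcription differs when RTF2 is removed. WT MEFs were Rtf2+/+ and RTF2-deficient MEFs were Rtf2-/lox, with one allele deleted from the start and the other floxed, so that Cre recombinase removes part of it. Both genotypes received Cre from a retrovirus 72 hrs before RNA was extracted, so WT cells share the virus and the recombinase. The study's methods state in general that littermate MEFs were compared and that lines from individual mothers served as replicates. The labels name a MEF line 1 and a MEF line 2 for each genotype, called line 1 and line 2 here. Each of the 4 groups (WT line 1, RTF2-deficient line 1, WT line 2 and RTF2-deficient line 2) had 3 libraries, which the study calls technical replicates, so p-values measure the spread between these libraries and the 2 lines are the only biological replicates. The study's methods describe SV40-immortalized MEFs, a permanent cell population in culture. No synchronization of the clock and no hour of the day at harvest are given in the sources used here, and each culture was read at a single time.

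The mammalian clock is a feedback loop of transcription. The proteins BMAL1 and CLOCK pair and bind E-box sequences to switch on the Per and Cry genes, whose proteins return to the nucleus and repress BMAL1 and CLOCK. Nr1d1 and Nr1d2 encode the REV-ERB receptors, which repress Bmal1, and Dbp encodes an activator that acts through D-box sequences. Fibroblasts keep such a clock in each cell, but the cells of an unsynchronized dish are out of phase with each other, so that bulk RNA gives an average over phases.

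Promoter sequences are shown for the period and cryptochrome pairs in which one member passed the test of genotype (Per3 and Cry2) and the other did not (Per1 and Cry1). They are RefSeq windows on GRCm38.p6 from 250 bases before to 50 bases after an annotated start, and 9 of the 10 genes had at least one, Per2 being the exception. Capitals mark the E-box (CACGTG), the E'-box (CACGTT, or AACGTG read on the other strand) and the D-box (TTATGTAA or TTATGCAA), searched on both strands. Per3 (chr4:151044616-151044915, minus strand), Cry2 (chr2:92434020-92434319, minus strand), Per1 (chr11:69098699-69098998, plus strand, the first of 2 windows) and Cry1 (chr10:85185005-85185304, minus strand) read 5′ to 3′ as follows.
Per3: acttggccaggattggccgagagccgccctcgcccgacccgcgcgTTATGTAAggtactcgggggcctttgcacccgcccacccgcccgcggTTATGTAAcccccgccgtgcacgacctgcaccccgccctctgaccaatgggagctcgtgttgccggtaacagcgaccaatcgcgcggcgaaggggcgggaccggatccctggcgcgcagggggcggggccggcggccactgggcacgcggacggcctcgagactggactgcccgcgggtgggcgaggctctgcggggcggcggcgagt
Cry2: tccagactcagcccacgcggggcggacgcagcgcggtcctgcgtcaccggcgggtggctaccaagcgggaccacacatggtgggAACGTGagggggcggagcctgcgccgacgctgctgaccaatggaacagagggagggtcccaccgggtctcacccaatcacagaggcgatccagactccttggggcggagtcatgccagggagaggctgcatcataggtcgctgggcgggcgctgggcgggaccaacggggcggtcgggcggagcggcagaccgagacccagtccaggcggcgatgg
Per1: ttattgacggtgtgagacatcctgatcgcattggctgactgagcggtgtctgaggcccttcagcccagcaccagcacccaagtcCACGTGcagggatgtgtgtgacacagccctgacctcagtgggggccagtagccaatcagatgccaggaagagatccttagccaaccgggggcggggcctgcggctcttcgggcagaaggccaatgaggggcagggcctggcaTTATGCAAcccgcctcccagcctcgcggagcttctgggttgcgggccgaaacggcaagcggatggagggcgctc
Cry1: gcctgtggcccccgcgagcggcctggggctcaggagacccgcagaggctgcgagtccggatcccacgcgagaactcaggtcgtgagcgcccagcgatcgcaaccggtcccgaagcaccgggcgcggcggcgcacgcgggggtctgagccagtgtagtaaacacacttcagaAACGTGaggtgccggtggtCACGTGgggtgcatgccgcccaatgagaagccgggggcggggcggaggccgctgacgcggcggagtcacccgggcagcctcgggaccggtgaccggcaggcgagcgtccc
The Per3 window held 2 D-boxes, which began 205 and 158 bases before the start, and no E-box or E'-box. The Cry2 window held 1 E'-box, 166 bases before the start. Per1 had an E-box at position -166 and a D-box at -24, and Cry1 an E'-box at -79 and an E-box at -60, counted from the start. Outside the printed windows, Nr1d1 had an E'-box at -28 and the second Bmal1 window a ROR/REV-ERB element core (TAGGTCA or TGGGTCA) at 31. No motif of these kinds, nor the cAMP response element TGACGTCA, was found in the windows of Clock, Nr1d2 or Dbp. Among 32851 promoter windows of the same length, 7.15% held an E-box, 4.68% an E'-box, 1.66% a D-box, 6.45% the ROR/REV-ERB core and 1.79% the cAMP response element. The motifs overlapped no other motif in these windows, a match is a match of letters only, and these windows do not cover distal or intronic elements.

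Library totals lay between 39360167 and 44695002 counts. Rtf2, the targeted gene, lay between 44.8 and 57.8 CPM (counts per 1e6 counts after TMM normalization) in the 6 WT libraries and between 5.44 and 6.66 CPM in the 6 RTF2-deficient libraries, which fits the labels. All 8 fibroblast markers were measured, with a summed level of 19142 to 31711 CPM, while the summed markers of epithelium, endothelium, macrophages and skeletal muscle lay below 20 CPM in every library and those of erythroid cells at or near 0. The 4 neuronal markers summed to between 36.5 and 93.1 CPM, nearly all of it Map2, while Snap25, Syp and Rbfox3 were each at most 0.338 CPM. WT line 2 stood apart, since Xist was between 0.0217 and 0.132 CPM there and between 103 and 173 CPM in the other groups, while the Y-linked Ddx3y was between 91.8 and 107 CPM there and at most 0.195 CPM elsewhere. A list of 15 interferon-stimulated genes summed to 6983, 636 and 1970 CPM in WT line 2 and to 112, 255 and 2651 CPM in RTF2-deficient line 2, against 64.8 to 421 CPM in line 1, so the line 2 groups overlapped with the WT median the higher. Skeletal muscle markers summed to 6.34 to 9.40 CPM in WT line 2 and 12.6 to 18.3 CPM in RTF2-deficient line 2, nearly all of it Des, with Myod1 and Myog at most 0.109 CPM in line 2, and macrophage markers to 6.97 to 9.66 and 4.84 to 5.98 CPM. Of the macrophage markers, Cd68 averaged 6.72 CPM in WT line 2 and 3.21 CPM in RTF2-deficient line 2, while Csf1r averaged 0.891 and 1.51 CPM. Fibroblast markers summed to 19142 to 21319 CPM in WT line 2 and 21424 to 24378 CPM in RTF2-deficient line 2, whereas one of them, Pdgfra, was at 17.2 to 21.7 CPM and 4.499 to 10.1 CPM, and 10 immediate early genes that respond to serum to 649 to 769 and 567 to 607 CPM. In line 1 the epithelial markers summed to 2.08 to 2.39 CPM in WT and 2.79 to 4.54 CPM in RTF2-deficient libraries. Of these, Krt18 averaged 1.57 and 2.84 CPM, Cdh1 0.467 and 0.530 CPM, and Epcam 0.153 and 0.0890 CPM. The fibroblast marker Thy1 was at 262 to 360 CPM in WT line 1 and 208 to 240 CPM in RTF2-deficient line 1. In line 2 genotype cannot be told apart from the sex of the embryo, and the part of the interferon-stimulated genes and of these markers in the results was not tested.

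Adjusted for transcript length, the REV-ERB genes were the most abundant of the clock genes and the period genes Per2 and Per3 the least. As CPM per kilobase of exon, the median over the 12 libraries was 21.9 for Nr1d2, 16.8 for Nr1d1, 5.91 for Clock, 4.31 for Cry1, 3.91 for Per1, 3.78 for Dbp, 2.51 for Bmal1, 2.502 for Cry2, 1.25 for Per2 and 1.04 for Per3. The ranges over libraries separated at 2 places in this order, between Nr1d1 (at least 7.70) and Clock (at most 6.60) and between Cry2 (at least 2.17) and Per2 (at most 1.75). All other neighbours overlapped. The spread within groups also differed from gene to gene. The SD of log2 CPM within groups was 0.387 for Nr1d1, where counting error accounts for 0.0319, and 0.0803 for Cry2, where counting error is 0.0548.

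**Figure D1:**
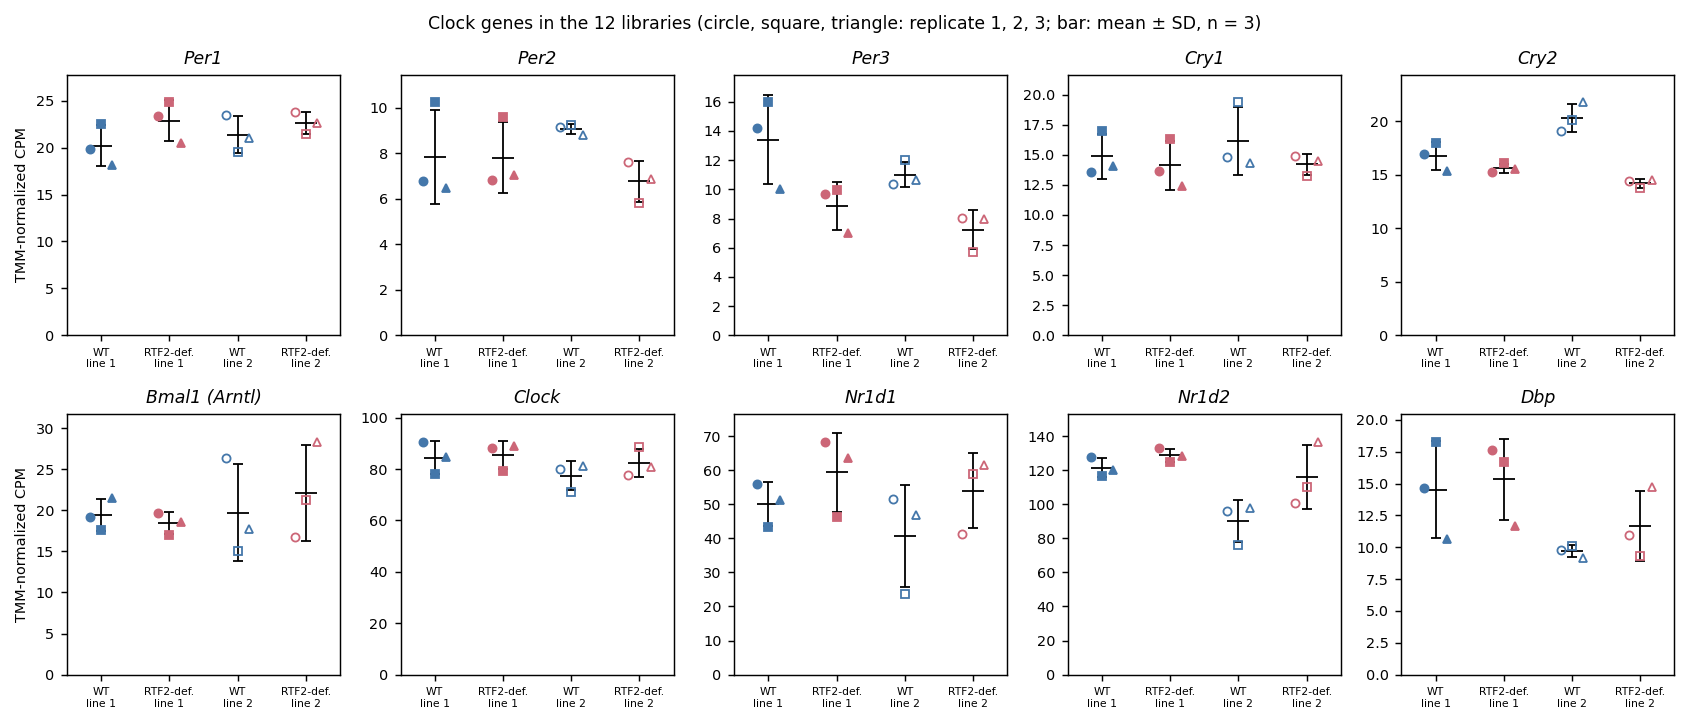
Level of the 10 clock genes in TMM-normalized CPM (y axis, from 0) in each of the 12 libraries by group (x axis). Blue points are WT and red points RTF2-deficient, filled for line 1 and open for line 2, with bars for mean ± SD (n = 3). Per3 is the one of the 10 genes in which all 6 WT points lie above all 6 RTF2-deficient points. The same separation holds for 4.41% of all genes tested.

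Over both lines, 2 of the 10 clock genes fell in RTF2-deficient MEFs, Per3 and Cry2, and none rose. Neither fell by more than 1 on the log2 scale, a size that 1.72% of all genes passed together with the test. Of all genes tested, 13.2% passed the same test at an adjusted p under 0.05 (8.18% lower and 4.98% higher), so the share of clock genes that passed was close to that of all genes. The median log2 fold change of the 10 clock genes was 0.05, beside 0.002 for all genes, and 6 of the 10 lay above 0. The test was edgeR's quasi-likelihood test with terms for line and genotype and Benjamini-Hochberg adjustment over all genes tested. Taken by line, Cry2 passed in line 2 but not in line 1. In line 2 genotype cannot be told apart from the sex of the embryo. In RNA of whole cultures, fewer cells with a transcript and less RNA per cell cannot be told apart.

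Per3 encodes the third period protein, a repressor-side component that the core loop can run without. Its gene lies on the minus strand of chromosome 4 from 151003652 to 151044665 (GRCm38). In WT line 1 it was measured at 14.2, 16.0 and 10.04 CPM in replicates 1, 2 and 3, and in RTF2-deficient line 1 at 9.67, 9.98 and 6.997 CPM. In WT line 2 it was at 10.4, 11.99 and 10.7 CPM, and in RTF2-deficient line 2 at 8.06, 5.70 and 7.96 CPM. All 6 WT libraries lay above all 6 RTF2-deficient libraries, with the smallest gap between WT line 1 replicate 3 and RTF2-deficient line 1 replicate 2. Over all genes, 5.97% separated in this way in either direction and 4.41% in this direction, and within line 1 alone 21.1% separated in either direction. The log2 fold change was -0.60 (SE 0.136, 95% interval -0.89 to -0.30), a level 0.661 times that of WT, with an adjusted p of 0.0130 in edgeR's quasi-likelihood test. With each of the 12 libraries left out in turn it lay between -0.67 and -0.53 and passed the test each time. With the 3 libraries of each group summed, a fit of 4 samples in which no gene passed, Per3 was at -0.59 with an adjusted p of 0.142.

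The fall of Per3 was alike in size in both lines. The log2 fold change was -0.59 (SE 0.199) in line 1 and -0.60 (SE 0.200) in line 2, and the difference between them was -0.01 with a 95% interval from -0.63 to 0.61. Neither line alone passed edgeR's quasi-likelihood test over all genes, with adjusted p of 0.172 in line 1 and 0.0742 in line 2. Between libraries of the same replicate number, the RTF2-deficient level was 0.681, 0.626 and 0.697 times the WT level in line 1 and 0.778, 0.475 and 0.747 times in line 2, where a shared number does not pair the libraries. In line 1 the replicate number carried shared variation, and fitted on line 1 alone with the replicate number as a block, Per3 was at -0.59 with an adjusted p of 0.00056.

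Cry2 encodes the second cryptochrome, a repressor that binds the BMAL1 and CLOCK pair. It lies on the minus strand of chromosome 2 from 92403646 to 92434043 (GRCm38), and its exons overlap those of the antisense gene D930015M05Rik over 295 of 6320 bases, a gene with 50 counts in all 12 libraries together. Cry2 was at 17.0, 18.01 and 15.4 CPM in WT line 1 and at 15.3, 16.1 and 15.5 CPM in RTF2-deficient line 1, so the groups overlapped. In WT line 2 it was at 19.1, 20.1 and 21.8 CPM and in RTF2-deficient line 2 at 14.4, 13.7 and 14.5 CPM. Every WT library of line 2 lay above every RTF2-deficient one, as for 29.5% of all genes in either direction in that line. Over both lines the log2 fold change was -0.31 (SE 0.0823, 95% interval -0.49 to -0.13), with an adjusted p of 0.0293 in edgeR's quasi-likelihood test. This call was lost without WT line 1 replicate 2 or without any one of the 6 libraries of line 2, with adjusted p between 0.0507 and 0.0748. It was also lost without the library of the highest interferon level in each line 2 group (adjusted p of 0.0752). The same held with the replicate number as a block (0.0519), where the numbers of RTF2-deficient line 2 are not established pairs. With the 3 libraries of each group summed, where no gene passed, Cry2 had an adjusted p of 0.320.

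In line 2 alone Cry2 fell by 0.52 on the log2 scale (SE 0.0830, adjusted p of 0.0029), and this was the single clock gene of 10 to pass edgeR's quasi-likelihood test there, beside 12.5% of all genes. Genotype cannot be told apart from the sex of the embryo in that line, and the part of sex in the Cry2 level was not tested. The call held with each library left out in turn, at log2 fold changes from -0.55 to -0.45. In line 1 Cry2 was at -0.10 (95% interval -0.29 to 0.08), and at -0.06 or -0.16 when WT line 1 replicate 2 or 3 was left out. The difference between the lines was -0.41 (SE 0.117) with an unadjusted p of 0.0048 and an adjusted p of 0.1701, so it did not pass the test over all genes. For the same difference 0 of 10 clock genes passed, beside 1.29% of all genes. Of the 10, 1 had an unadjusted p under 0.05, beside 1211 of the 14263 genes tested. By DESeq2, 3 of 10 clock genes passed in line 2, Cry2, Per3 and Nr1d2, beside 18.1% of all genes. Without WT line 1 replicate 3, edgeR called Per3 as well in line 2, with an adjusted p of 0.0492.

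**Figure D2:**
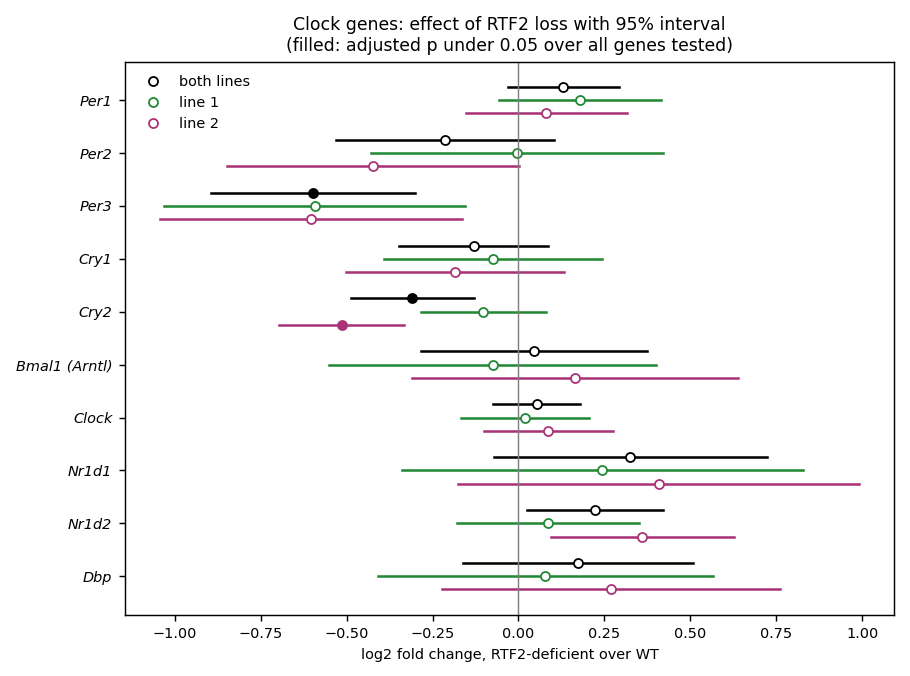
Log2 fold change of each clock gene, RTF2-deficient over WT (x axis), with its 95% interval, over both lines (black), in line 1 (green) and in line 2 (magenta). Filled points have an adjusted p under 0.05 over all genes tested, which holds for Per3 and Cry2 over both lines and for Cry2 in line 2.

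The other period genes showed smaller differences than Per3. Per1, a period gene that also responds quickly to serum and cAMP signals, was at 20.2 ± 2.19 CPM in WT line 1, 22.9 ± 2.19 in RTF2-deficient line 1, 21.4 ± 1.99 in WT line 2 and 22.6 ± 1.16 in RTF2-deficient line 2 (mean ± SD, n = 3 each). Its log2 fold change over both lines was 0.13 (95% interval -0.03 to 0.29, adjusted p of 0.268 in edgeR's quasi-likelihood test). Per2, a core repressor of the loop, lay at 6.78, 10.2 and 6.49 CPM in WT line 1 and 6.81, 9.59 and 7.02 CPM in RTF2-deficient line 1, and replicate 2 was the highest in both groups. In line 2 its WT libraries were at 9.14, 9.24 and 8.81 CPM and its RTF2-deficient libraries at 7.63, 5.80 and 6.85 CPM. The line 2 groups did not overlap, as for 29.5% of all genes in either direction in that line. The log2 fold change of Per2 there was -0.42 (95% interval -0.85 to 0.00) with an adjusted p of 0.181 in the same test. Over both lines it was -0.21 with an adjusted p of 0.354, and -0.13 without WT line 1 replicate 2.

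Cry1, the other cryptochrome, lay between 12.4 and 19.4 CPM over all libraries, with a log2 fold change over both lines of -0.13 (95% interval -0.35 to 0.09, adjusted p of 0.415). Its groups overlapped in both lines. The highest value was that of WT line 2 replicate 2, without which the log2 fold change was -0.056.

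Bmal1 and Clock, the activators of the loop, showed no difference that passed the test, with log2 fold changes over both lines of 0.05 (95% interval -0.28 to 0.37) for Bmal1 and 0.05 (-0.07 to 0.18) for Clock. That of Clock lay between 0.02 (WT line 2 replicate 2 left out) and 0.09 (WT line 1 replicate 1 left out). Clock was the steadiest of the 10 genes, from 71.2 to 90.7 CPM, a ratio of 1.27 between the highest and the lowest library. Bmal1 was at 19.2, 17.6 and 21.5 CPM in WT line 1 and at 19.7, 17.0 and 18.6 CPM in RTF2-deficient line 1. In line 2 it spread more widely, at 26.4, 15.1 and 17.8 CPM in WT libraries and 16.8, 21.2 and 28.4 CPM in RTF2-deficient libraries. The highest value of each line 2 group fell in the library with the highest interferon level of that group, WT replicate 1 and RTF2-deficient replicate 3. Without these 2 libraries the log2 fold change over both lines was 0.05 (adjusted p of 0.784), and without WT line 2 replicate 2 or RTF2-deficient line 2 replicate 3 it was -0.04 or -0.05. The part of the interferon response in the Bmal1 level was not tested.

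Nr1d1, which encodes REV-ERBα, was at 55.9, 43.3 and 51.4 CPM in WT line 1 and at 68.4, 46.3 and 63.5 CPM in RTF2-deficient line 1. It was at 51.7, 23.7 and 46.8 CPM in WT line 2 and at 41.4, 59.0 and 61.7 CPM in RTF2-deficient line 2. The genotypes overlapped in both lines, and the low value of WT line 2 replicate 2 set the 2.89-fold range, the widest of the 10 genes. Its log2 fold change over both lines was 0.33 with a 95% interval from -0.07 to 0.72 and an adjusted p of 0.263, and 0.19 (adjusted p of 0.357) without WT line 2 replicate 2. Nr1d1 overlaps the thyroid hormone receptor gene Thra on the opposite strand over 263 of its 3077 exon bases, and whether the counting used strand is not given in the sources used here. Thra was at 30.2 to 52.8 CPM in WT line 1, 24.6 to 37.8 in RTF2-deficient line 1, 33.0 to 48.1 in WT line 2 and 20.6 to 34.3 in RTF2-deficient line 2. Its log2 fold change was -0.50 (SE 0.190, adjusted p of 0.109), below 0 where that of Nr1d1 was above 0, and neither passed the test.

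Nr1d2, which encodes REV-ERBβ, was at 128, 117 and 120 CPM in WT line 1 and at 133, 125 and 129 CPM in RTF2-deficient line 1. In line 2 it was at 96.4, 76.1 and 98.2 CPM in WT libraries and at 101, 110 and 137 CPM in RTF2-deficient libraries. The line 2 groups did not overlap, with the RTF2-deficient libraries the higher, while those of line 1 did. In line 2, 29.5% of all genes separated in either direction. The log2 fold change was 0.22 over both lines (95% interval 0.02 to 0.42, adjusted p of 0.132 in edgeR's quasi-likelihood test), 0.08 in line 1 and 0.36 in line 2 (adjusted p of 0.0764).

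Dbp, the D-box activator whose level follows the clock closely in many tissues, varied as much between replicate numbers as between genotypes. It was at 14.6, 18.3 and 10.64 CPM in WT line 1 and at 17.6, 16.7 and 11.7 CPM in RTF2-deficient line 1, with replicate 3 the lowest in both. In line 2 it was at 9.75, 10.1 and 9.16 CPM in WT libraries and at 10.9, 9.31 and 14.7 CPM in RTF2-deficient libraries. The log2 fold change over both lines was 0.17 (95% interval -0.16 to 0.51, adjusted p of 0.488). Leaving out RTF2-deficient line 2 replicate 3 gave 0.083. In WT line 1, the omission of replicate 3 gave 0.10 and that of replicate 2 gave 0.27. Dbp overlaps Sphk2, which encodes a sphingosine kinase, on the opposite strand over 539 of 2993 exon bases. Sphk2 lay between 20.7 and 26.3 CPM in all libraries, with a log2 fold change of 0.15 (adjusted p of 0.153). A further antisense gene, Gm45355, overlaps 33 of the 7523 exon bases of Bmal1 and was not analysed here.

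**Figure D3:**
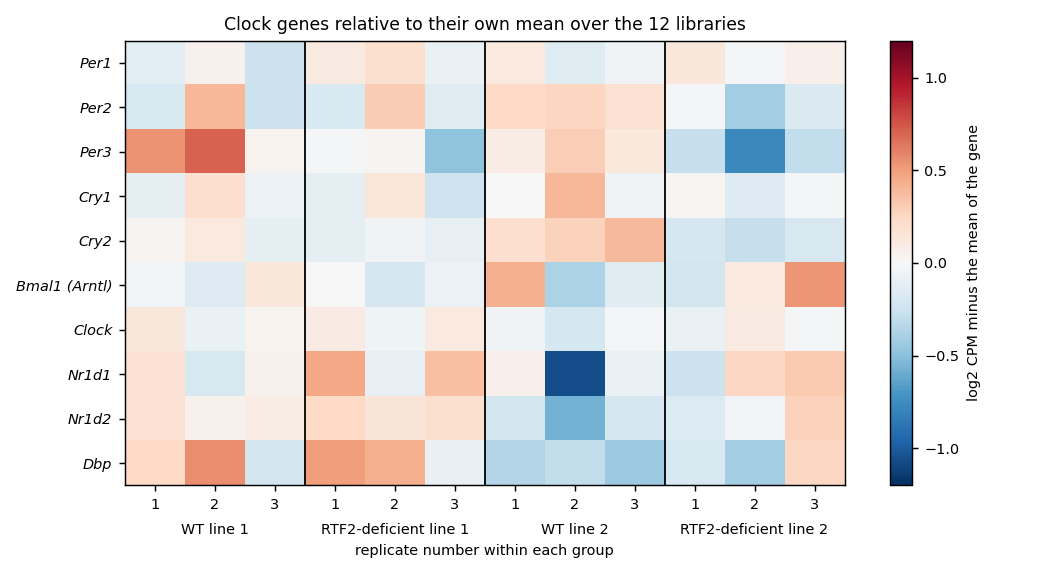
Log2 CPM of each clock gene (rows) minus its own mean over the 12 libraries, by library (columns, replicate number within each group), from blue (below the mean) to red (above). WT line 2 replicate 2 holds the lowest value of Bmal1, Clock, Nr1d1 and Nr1d2 and the highest of Cry1.

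Single libraries held several of the extremes. Of the 10 genes, 4 (Bmal1, Clock, Nr1d1 and Nr1d2) were lowest in WT line 2 replicate 2, where Cry1 was highest. Another 3 (Per2, Per3 and Cry2) were lowest in RTF2-deficient line 2 replicate 2, and 3 (Per2, Per3 and Dbp) were highest in WT line 1 replicate 2.

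In line 1, 0 of 10 clock genes passed edgeR's quasi-likelihood test of genotype over the 12 libraries, beside 3.2% of all genes. Per3 alone had an unadjusted p under 0.05, beside 1986 of the 14263 genes tested. DESeq2 also called 0, beside 5.98% of all genes. Libraries of one number deviated together in line 1, and the fit of line 1 alone with the replicate number as a block called 3 of 10, beside 29.1% of the 13685 genes tested in it. These were Per3 (lower), Per1 (higher, log2 fold change 0.18, adjusted p of 0.0285) and Nr1d1 (higher, 0.23, adjusted p of 0.0087). Per1 was 1.17, 1.101 and 1.13 times the WT level in replicates 1, 2 and 3, and Nr1d1 was 1.22, 1.07 and 1.24 times, so all 3 pairs lay above 1 for each. In the fit over 12 libraries without the block, leaving out 1 library moved the line 1 log2 fold change of Per1 between 0.11 (WT replicate 3 or RTF2-deficient replicate 2 of line 1) and 0.26 (WT replicate 2), with adjusted p of at least 0.421. That of Nr1d1 moved between 0.13 (RTF2-deficient replicate 1) and 0.39 (RTF2-deficient replicate 2), with adjusted p of at least 0.618.

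**Figure D4:**
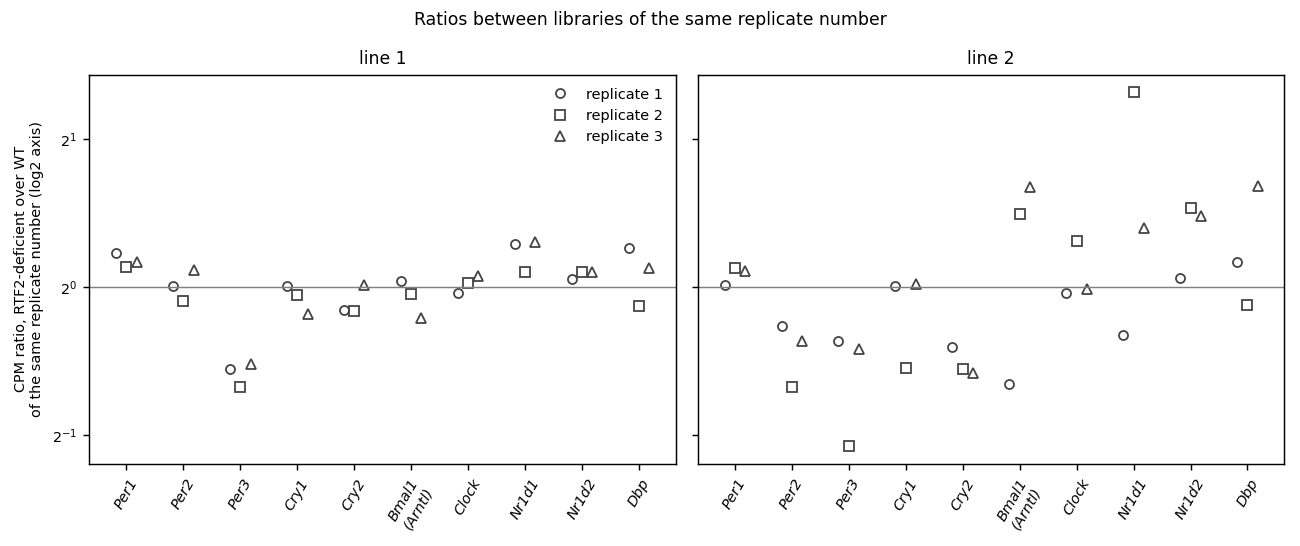
CPM of each clock gene in an RTF2-deficient library divided by that in the WT library of the same replicate number (y axis, log2 scale, line at a ratio of 1), for line 1 (left) and line 2 (right). Per3 is below 1 in all 6 ratios, which follows from all its WT libraries lying above all RTF2-deficient ones. Per1 and Nr1d2 are above 1 in all 6. In line 2 a shared number does not pair the libraries, so the spread of the ratios there depends on which libraries are set against each other.

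The 2 WT lines share the Rtf2+/+ genotype but differ in embryo, in the sex-linked genes above and in the summed interferon-stimulated genes (70.1 to 421 CPM in WT line 1 and 636 to 6983 CPM in WT line 2), and the part of each in their differences was not tested. Between them 2 of 10 clock genes passed edgeR's quasi-likelihood test, beside 14.0% of all genes. Nr1d2 was lower in WT line 2 than in WT line 1 by a log2 difference of -0.43 (SE 0.121, adjusted p of 0.0370), and Cry2 was higher by 0.28 (SE 0.0827, adjusted p of 0.0479). The Cry2 call was lost with each of the 12 libraries left out in turn (adjusted p from 0.0635 to 0.197), and that of Nr1d2 without any WT line 1 library or WT line 2 replicate 2 (up to 0.0854). Dbp was at a log2 difference of -0.58 (adjusted p of 0.111), and at -0.78 (adjusted p of 0.0431) without WT line 1 replicate 3. Fitted on the WT libraries alone with the replicate number as a block, 2 of 10 passed, Nr1d2 at -0.45 (adjusted p of 0.0158) and Dbp at -0.57 (adjusted p of 0.0364), beside 17.6% of the 13914 genes tested in it, and Cry2 did not (adjusted p of 0.139). Between the RTF2-deficient lines 0 of 10 passed, beside 1.94% of all genes. An unadjusted p under 0.05 was found for 0, beside 1911 of the 14263 genes tested.

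Other genes of the clock were examined as 3 lists. The first held 10 tested partners of the loop, namely Npas2, Bmal2, the receptor genes Rora and Rorb, the D-box factors Tef, Hlf and Nfil3, and the repressors Bhlhe40, Bhlhe41 and Ciart. Bmal2 (listed as Arntl2), a paralogue of Bmal1, rose, and Hlf, a D-box activator related to Dbp, fell, while 8 did not pass the test. These 2 of 10 stand beside 13.2% of all genes in the same test. The median log2 fold change of the list was 0.08.

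Bmal2 was at 4.92, 4.61 and 4.51 CPM in WT line 1 and at 7.90, 7.51 and 6.56 CPM in RTF2-deficient line 1. These groups did not overlap, as for 21.1% of all genes in either direction in line 1. In line 2 it was at 6.45, 4.89 and 4.82 CPM in WT libraries and at 6.33, 6.49 and 7.96 CPM in RTF2-deficient libraries, where WT replicate 1 overlapped the other group. The log2 fold change was 0.50 over both lines (SE 0.109, adjusted p of 0.0104 in edgeR's quasi-likelihood test), 0.65 in line 1 (adjusted p of 0.0414) and 0.36 in line 2 (adjusted p of 0.137). Over both lines the call held with each library left out in turn, at 0.47 to 0.59. The call in line 1 was lost without any one of the 6 libraries of line 1 or without RTF2-deficient line 2 replicate 1 or 2 (adjusted p from 0.0576 to 0.144). It was also lost over the 12 libraries with the replicate number as a block (0.0679), where the numbers of RTF2-deficient line 2 are not established pairs. The fit of line 1 alone with that block called it, at 0.64 with an adjusted p of 0.0016. A call in line 2 was gained without WT line 2 replicate 1 (adjusted p of 0.0417).

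Hlf was near the limit of detection in line 1, with 2 to 6 counts in every library of both genotypes, around the floor of 3 counts. In line 2 the counts were 63, 63 and 57 in WT libraries and 15, 14 and 19 in RTF2-deficient libraries, or 1.37, 1.39 and 1.35 CPM against 0.361, 0.359 and 0.429 CPM. The log2 fold change in line 2 was -1.83 (SE 0.290, adjusted p of 0.0026 in edgeR's quasi-likelihood test). Over both lines it was -1.26 with an adjusted p of 0.0356. This call was lost without RTF2-deficient line 1 replicate 3 or any one of the 6 libraries of line 2 (adjusted p from 0.0626 to 0.123). It was also lost without the highest-interferon library of each line 2 group (0.0955) and with the replicate number as a block (0.0535). That block does not rest on established pairs in RTF2-deficient line 2. Hlf passed in 10 of 22 fits over both lines. The counts in WT line 2 also exceeded those in WT line 1 (adjusted p of 4.005e-05), with no fold given since the latter lie around the floor. In line 2 genotype cannot be told apart from the sex of the embryo, and the part of sex in the Hlf level was not tested.

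**Figure D5:**
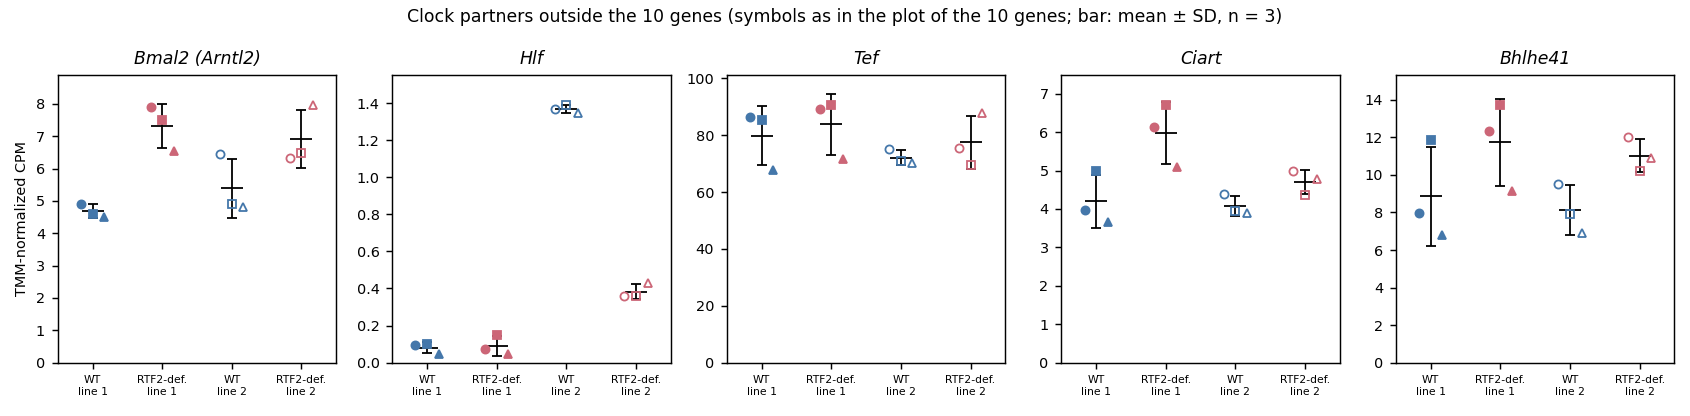
Level of 5 clock partners in TMM-normalized CPM (y axis, from 0) in each library by group, drawn as for the 10 genes, with bars for mean ± SD (n = 3). Bmal2 is higher in RTF2-deficient libraries of line 1 with no overlap (as for 21.1% of all genes in either direction), and Hlf is above 1 CPM in WT line 2 alone.

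The closest of the other partners to the threshold were Ciart, an inhibitor of the BMAL1 and CLOCK pair, at a log2 fold change of 0.36 (adjusted p of 0.0577), Bhlhe41, a repressor that competes at E-boxes, at 0.42 (adjusted p of 0.0765), and Nfil3, a repressor at D-boxes, at -0.23 (adjusted p of 0.0851). None passed edgeR's quasi-likelihood test over the 12 libraries, while with the replicate number as a block that test called Bhlhe41, at 0.43 with an adjusted p of 0.0447. That block does not rest on established pairs in RTF2-deficient line 2. DESeq2 called Ciart and Bhlhe41, beside 19.0% of all genes, and voom, fitted with the group as a random block at an estimated correlation of -0.148, called all 3, beside 24.2% of all genes. Without the highest-interferon library of each line 2 group, edgeR called Nfil3, at -0.29 with an adjusted p of 0.0277. Tef, the most abundant D-box activator here at 67.8 to 90.5 CPM, was at 0.09 (adjusted p of 0.521).

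A second list held 16 genes for kinases and F-box proteins that modify or degrade clock proteins and for proteins described as binding them, among these the replication fork proteins Timeless and Tipin. Of these, 0 of 16 passed edgeR's quasi-likelihood test over both lines, beside 13.2% of all genes, with log2 fold changes from -0.26 to 0.19 and a median of 0.05. An unadjusted p under 0.05 was found for 2, beside 4070 of the 14263 genes tested. DESeq2 and voom called 2 each, beside 19.0% and 24.2% of all genes. The glycogen synthase kinase gene Gsk3b lay nearest, at 0.19 (adjusted p of 0.0533). It and Fbxw11, an F-box protein gene that acts on period proteins, passed in the contrast of line 2, at 0.30 (adjusted p of 0.0226) and 0.25 (adjusted p of 0.0174), which makes 2 of 16 beside 12.5% of all genes. Gsk3b also passed over both lines without WT line 1 replicate 1. Of 13 genes described as clock outputs in other tissues, among them Wee1, Nampt and Noct, 0 passed edgeR's quasi-likelihood test over both lines, beside 13.2% of all genes, with a median log2 fold change of -0.05 and the lowest value, -0.57, in Nampt. Of these outputs, 2 had an unadjusted p under 0.05, beside 4070 of the 14263 genes tested. DESeq2 called 0 and voom called 1, Nampt, beside 19.0% and 24.2% of all genes. Pparg passed without RTF2-deficient line 1 replicate 1. These outputs and the genes of the second list have other regulators, and the outputs share Tef and Usp2 with the other lists.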

How the data were processed

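Per the labels and methods, the authors deposited unnormalized whole-number counts, 1 column per library and 1 row per Entrez identifier. The methods name Salmon with mm10 gene models and tximport, whereas HTSeq appears in the submitters' notes, and which of them gave these counts is unresolved. Whether strand was used or poly(A) RNA selected is not stated. Library totals were 39360167 to 44695002 counts, a depth that leaves library spread larger than counting error for the clock genes.

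Of 24100 identifiers, 24045 matched a RefSeq symbol. Exon lengths and overlaps came from GENCODE M21 (GRCm38). In R 4.3.3, edgeR 4.0.16 (filterByExpr, TMM, quasi-likelihood test, Benjamini-Hochberg adjustment) was fitted over all genes and 12 libraries, with line and genotype terms or with the 4 groups. Calls needed an adjusted p under 0.05. The procedure was tested on simulated data. Alternatives were other normalizations and filters, DESeq2 1.42.0, limma 3.58.1 voom, no line term, summed triplicates, a replicate block and each library left out.

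Deviations of same-numbered libraries from their group means correlated at 0.43 to 0.625 in line 1, 0.305 to 0.426 between the WT lines and 0.287 to 0.309 between RTF2-deficient line 1 and WT line 2, with every library closest to its own number, but at -0.587 to 0.17 in line 2. Numbers were thus taken to pair the libraries of these 3 groups only. Each RTF2-deficient line 2 library correlated best with another number of WT line 2 (0.367 to 0.654). Whether that group was numbered in another order is not given in the sources used here, so same-number ratios of line 2 and the block over 12 libraries do not rest on established pairs there. Libraries of a group differed by more than sampling noise (chi-square per degree of freedom 20.5 to 180), so none was merged.

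The genes named are the 10 clock genes, Rtf2, genes whose exons overlap a clock gene, up to 3 genes of each direction per list that passed the test, those that an alternative called or that lay next to the threshold (chosen after their values were seen), and the 3 genes with the most similar profile for each of 4 clock genes. Members and lists were chosen with earlier results of these data known, and some list genes are not reported here.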

Additional observations from a re-analysis of the deposited data

How the results depend on the processing

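The count of clock genes called over both lines was 2, and 1 to 2 with each library left out in turn. It was 1 (Per3) with the replicate number as a block or, an alternative chosen after seeing the data, without the highest-interferon library of each line 2 group, and 0 with triplicates summed, where edgeR called 0 of all genes (2737 with an unadjusted p under 0.05) and even Rtf2 was not called. Per3 passed in 22 of 23 fits and Cry2 in 13. In line 1 the count was 0 in all fits but the added one of line 1 alone with a replicate block, where it was 3. In line 2 it was 1 to 2 over the fits that leave out a library, and 3 by DESeq2. Between the WT lines it was 0 to 1 with a library left out, and 1 under RLE normalization, with no filter on low counts, with the replicate block and without the highest-interferon libraries. The block changed no other call of the 10 genes, and lost that of Hlf over both lines (adjusted p of 0.0535) and that of Bmal2 (Arntl2) in line 1 (0.0679), while Bhlhe41 was called over both lines. It does not rest on established pairs in RTF2-deficient line 2. For the partners the count was 2, and 1 without a filter or a line term, 0 with triplicates summed, 4 by DESeq2 (19.0% of all genes called), 5 by voom (24.2%) and 1 to 3 with a library left out. For the kinases, F-box proteins and binding proteins the count of 0 became 1 (Gsk3b) under RLE or upper-quartile normalization or a filter of 1 CPM in 6 libraries, 2 (with Fbxw11) by DESeq2 and voom, and 0 to 1 with a library left out. For the outputs it became 1 (Nampt) by voom and was 0 to 1 with a library left out. With a library left out, the log2 fold change of Bmal1 (Arntl) over both lines ran from -0.054 (RTF2-deficient line 2 replicate 3 absent) to 0.15 and was also negative, at -0.040, in the absence of WT line 2 replicate 2. That of Hlf in line 1 ran from -0.41 (RTF2-deficient line 1 replicate 2 absent) to 0.41 and was -0.13 in the absence of WT line 1 replicate 3. The causes were not tested, and depth limits only Hlf, Npas2 and Rorb, with few counts per library.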

Other observations

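Profiles over the 12 libraries were compared for the 4 clock genes with the largest range of group means, as the root mean square difference of log2 CPM after each gene's own mean was removed. Of the other 14262 genes tested, those closest to Per3 were Plcg1 (0.124), which encodes a phospholipase C, Pfkm (0.133), which encodes the muscle phosphofructokinase, and Ilvbl (0.134). The profile of Per3 itself had a root mean square of 0.397. Those closest to Dbp were Sspn (0.148), Zfp362 (0.168) and Hs6st2 (0.172), beside 0.356 for Dbp itself. Nr1d1 was closest to Skil (0.166), a regulator of SMAD signalling, Adamts6 (0.175) and Srl (0.184), beside 0.387 for Nr1d1 itself. Nr1d2 was closest to Mdfic (0.0783), Slc36a4 (0.0846) and Adamts6 (0.0905), beside 0.237 for Nr1d2 itself. Adamts6, a secreted metalloprotease gene, was thus among the 3 closest for both REV-ERB genes. These are descriptions over libraries that share 4 groups and cell cultures, and nothing of shared function was tested.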
